A study of Mus musculus with 30 samples.

Results

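The abundant plasma carrier proteins made by the liver were described here through 9 genes, Alb, Afm, Gc, Ttr, Hpx, Trf, Ahsg, Fetub and Ambp. They were taken by symbol from the 55450 genes of the count table, without a threshold on measured values but with earlier results of these data known, and all 9 had enough counts to be tested in every comparison. Hepatocytes secrete these proteins into blood, where they hold poorly soluble or reactive cargo in solution and keep it from being lost through the kidney. Albumin (Alb) binds fatty acids, bilirubin and many drugs, and it shares a gene family with afamin (Afm), which binds vitamin E, and with the vitamin D and actin binding protein Gc. Transthyretin (Ttr) carries thyroid hormone and, together with retinol binding protein, vitamin A. Hemopexin (Hpx) scavenges free heme and transferrin (Trf) delivers ferric iron to cells. Fetuin-A (Ahsg) and fetuin-B (Fetub) are cystatin-related proteins, the first of which keeps calcium phosphate in solution and the second of which protects the egg coat from early hardening. Ambp encodes a precursor that is cleaved into the lipocalin alpha-1-microglobulin and the protease inhibitor bikunin. CEBPA, the transcription factor deleted in the study, was named for its binding to CCAAT motifs and is a classical activator of liver genes, Alb among them.

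The 30 libraries, 1 per mouse, come from livers of male mice backcrossed to C57BL/6N, and 3 experiments set 5 Cebpa fl/fl controls beside 5 knockouts, giving 6 groups. All mice ate a diet rich in fat, cholesterol and fructose (HFCFD). In HFCFD2W the diet lasted 2 weeks and the knockout was Cebpa ΔHep, in which the albumin promoter drives Cre throughout life. In HFCFD8W+T10D the knockout was Cebpa ΔHep,ERT2, with a tamoxifen-inducible albumin-Cre, and the label gives 8 weeks of diet with 10 days of tamoxifen. In HFCFD12W+T10W the same inducible line had 12 weeks of diet and then 10 weeks with tamoxifen, 22 weeks of diet in all, and the Cebpa fl/fl controls of both inducible experiments carry the same tamoxifen label as the knockouts. Ages are not given in the sources used here. Cre in both lines is driven from the promoter of Alb, 1 of the 9 genes, so knockout and control livers also differ in carrying that transgene.

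Library totals ran from 7996128 to 10257366 counts, so each of the 9 genes was read from many counts and the spread between mice, not counting error, set the precision. The targeted gene followed its labels. Cebpa was at 151 ± 15.6 CPM (SD, n = 5) in Cebpa fl/fl and 4.03 ± 0.762 CPM in Cebpa ΔHep livers of HFCFD2W. It was at 147 ± 13.6 and 17.8 ± 6.27 CPM in HFCFD8W+T10D, and at 129 ± 25.8 and 24.8 ± 2.35 CPM in HFCFD12W+T10W, with no overlap between genotypes in any experiment. CPM are counts scaled to a common library total after an adjustment that balances most genes between libraries (TMM), made within an experiment, so they are compared within an experiment only. The libraries held liver as labelled: all 6 hepatocyte markers of the fixed list were detected in every experiment. Their summed level in knockouts was 1.04, 0.977 and 0.812 times that of controls in the 3 experiments. A sum need not follow each marker: Cps1, 1 of the 6, was lower in knockouts of both inducible experiments, and Hnf4a was lower in HFCFD12W+T10W. Marker sums, unlike the other CPM, were scaled to library totals without TMM. On library totals the median log2 difference of all genes was 0.03, 0.19 and 0.38 in the 3 experiments. The summed level in knockouts was 11.4, 6.17 and 22.4 times that of controls for the 5 cholangiocyte markers, and 1.08, 1.88 and 5.43 times for the 7 stellate cell and fibroblast markers. It was 1.35, 1.82 and 1.45 times for macrophage, 1.49, 1.79 and 4.72 times for lymphocyte, 0.657, 2.71 and 2.25 times for erythroid and between 0.979 and 1.13 times for endothelial markers. The lymphocyte sums lay near the floor, at 0.111 to 0.875 CPM in controls and 0.315 to 1.22 CPM in knockouts of HFCFD2W. The cholangiocyte markers include Spp1. The paper reports that Spp1 was mostly induced in hepatocytes when these lacked Cebpa. The cholangiocyte sum therefore need not follow the number of cholangiocytes, and the part of Spp1 in it was not tested. In bulk tissue, fewer cells of a type and less RNA per cell cannot be told apart, and the part of these marker shifts in the values below was not tested.

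Of the 9 genes, 4 lie close to a relative. On mouse chromosome 5, Alb (90460897 to 90476602, plus strand, GRCm38) is followed after 14135 bases by the fetal albumin relative Afp, which is no member, and Afm (90518932 to 90553543, plus strand) starts 42330 bases after Alb ends. Gc (89417522 to 89457898, minus strand) lies 1002999 bases before Alb. The fetuin genes Ahsg (22891277 to 22899449) and Fetub (22918334 to 22939778) are neighbours on the plus strand of chromosome 16 with 18885 bases between them. Hpx is on chromosome 7, Trf on 9, Ambp on 4 and Ttr on 18.

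The bases before the chromosome 5 genes are shown because Alb, Afm and Gc belong to one family but changed to different extents in the knockouts. The sequences are RefSeq's, on GRCm38.p6, 5′ to 3′ on the gene's strand, and end before the annotated gene. Capitals mark matches, on either strand, to TTNNGNAA, a relaxed form of the pattern that C/EBP and related bZIP factors bind, and to GTTAAT, one arm of the HNF1 pattern.
Alb, chr5:90460620-90460869, plus strand: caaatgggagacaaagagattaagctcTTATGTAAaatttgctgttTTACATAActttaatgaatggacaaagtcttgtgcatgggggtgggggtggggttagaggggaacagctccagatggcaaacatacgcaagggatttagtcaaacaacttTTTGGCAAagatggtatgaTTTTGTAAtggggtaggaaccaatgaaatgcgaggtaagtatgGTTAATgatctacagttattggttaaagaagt
Afm, chr5:90518699-90518931, plus strand: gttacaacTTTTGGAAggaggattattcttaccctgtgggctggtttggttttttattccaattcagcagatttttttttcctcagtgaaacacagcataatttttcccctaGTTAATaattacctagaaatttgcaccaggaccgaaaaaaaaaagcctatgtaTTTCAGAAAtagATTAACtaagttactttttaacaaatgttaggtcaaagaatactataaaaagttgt
Gc, chr5:89457899-89458148, minus strand: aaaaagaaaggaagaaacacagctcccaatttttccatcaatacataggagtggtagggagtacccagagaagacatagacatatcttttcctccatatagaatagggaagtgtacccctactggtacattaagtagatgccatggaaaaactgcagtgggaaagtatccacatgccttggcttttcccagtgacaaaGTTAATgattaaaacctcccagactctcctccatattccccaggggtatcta
The Alb window held 4 matches to TTNNGNAA and the Gc window none, while Afm held 1 apart and 2 that overlap each other. GTTAAT was found once in the Alb and Gc windows and, counting its reverse ATTAAC, at 2 places in Afm. Of the 9 genes, 7 had a RefSeq promoter entry, and within 250 bases before RefSeq's start 5 of the 7 held TTNNGNAA, against 36.8% of 32851 promoters. GTTAAT was in 3 of them, against 6.43% of promoters. CCAAT was in 6 and TATAAA in 2, against 33.8% and 12.4%. The genes with TTNNGNAA were Alb, Afm, Hpx, Ahsg and Fetub, while Gc and Ambp held none. In the genotype tests below, Hpx and Ahsg passed in no experiment, and Gc and Ambp passed as lower in HFCFD12W+T10W. The GENCODE gene can begin further upstream than RefSeq's start, and of the 8 windows counted (Fetub has 2) 3 lay wholly inside the GENCODE gene and 2 wholly before it. These matches describe letters and not binding, and whether they bear on the changes in the knockouts was not tested.

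Levels between genes were compared per length, as TPM, in which counts are divided by transcript length and set to the same total in every library. Alb stood first of the 9 in every group, at 42726 ± 5827 TPM (SD, n = 5) in controls of HFCFD2W, 57167 ± 7010 in controls of HFCFD8W+T10D and 50955 ± 5029 in controls of HFCFD12W+T10W. It ranked 2 among all genes in 5 groups and 3 in the knockouts of HFCFD12W+T10W. Trf was second, at 13660 ± 1192, 14116 ± 1514 and 14251 ± 819 TPM in the 3 control groups. The range of Trf lay apart from that of Alb in 5 groups and overlapped it in the knockouts of HFCFD8W+T10D, where Alb was at 33430 ± 5402 and Trf at 26165 ± 5995 TPM. Trf ranked 12, 10 and 10 among all genes in the control groups, 12 in the knockouts of HFCFD2W, and 4 and 5 in the knockouts of HFCFD8W+T10D and HFCFD12W+T10W.

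Ttr, Ahsg, Hpx and Gc formed the middle of the order, from 4019 to 9058 TPM over all groups, and most neighbours among them overlapped. Ambp followed at 1935 to 3316 TPM, Fetub at 292 to 417 TPM and Afm at 88.3 to 189 TPM. Fetub stood apart from both its neighbours in every group, and so did Afm from Fetub. In controls of HFCFD2W, Alb was 397 times Afm in TPM. The 4 middle genes were not in the same order in all 6 groups, although the controls of HFCFD8W+T10D and HFCFD12W+T10W shared one, while Alb, Trf, Ambp, Fetub and Afm held their places throughout.

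**Figure D1:**
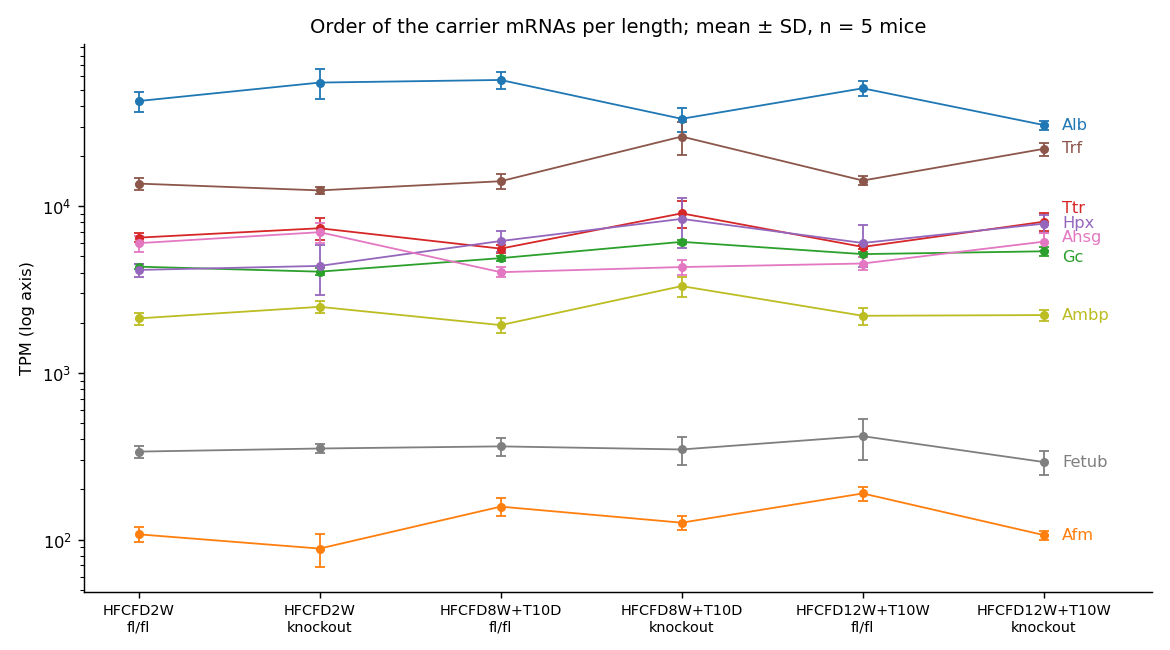
Mean TPM with SD (n = 5 mice) of the 9 genes in each of the 6 groups, on a log axis. Alb lies highest and Afm lowest in every group, and Trf comes nearest to Alb in the knockouts of HFCFD8W+T10D.

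In HFCFD2W, the constitutive deletion after 2 weeks of diet, 0 of the 9 genes passed the test (adjusted p under 0.05 in edgeR's quasi-likelihood test, Benjamini-Hochberg over 11068 genes), while 16.7% of all genes tested did. Unadjusted p was under 0.05 for 3 of them, Gc, Afm and Trf, all lower in knockouts. DESeq2 called 1, Gc, and limma 0. The median log2 difference of the 9 genes was -0.02, and that of all genes 0.01. Alb was at 62218, 86336, 71539, 72425 and 67149 CPM in the controls. In the knockouts, numbered 2 to 6, it was at 64265, 65347, 95436, 100543 and 104918 CPM. The 3 highest knockouts exceeded every control and the other 2 lay among the lower controls, so the groups overlapped. The log2 difference was 0.26 (SE 0.16, edgeR adjusted p = 0.279).

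Gc, the vitamin D carrier, was at 5907, 5958, 5709, 6138 and 6296 CPM in the controls and at 4751, 4937, 5192, 5088 and 5552 CPM in the knockouts. All 5 knockouts lay below all controls, as 6.13% of all genes did, with a log2 difference of -0.23 (SE 0.08) and an edgeR adjusted p of 0.0506, just short of the threshold. Afm was at 171, 200, 180, 166 and 193 CPM in controls and at 101, 104, 162, 169 and 156 CPM in knockouts. Knockouts 2 and 3, the mice with the lowest Alb, also had the lowest Afm, and 4 of 5 knockouts were below every control (log2 difference -0.39, SE 0.14, edgeR adjusted p = 0.0774). Without knockout 5 the adjusted p of Afm was 0.0433, and without knockout 6 that of Gc was 0.0468. Trf differed by -0.21 (SE 0.10, edgeR adjusted p = 0.158). The other 5 genes, Ttr, Hpx, Ahsg, Fetub and Ambp, differed by -0.04 to 0.13 with adjusted p of 0.345 or above, and their groups overlapped.

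**Figure D2:**
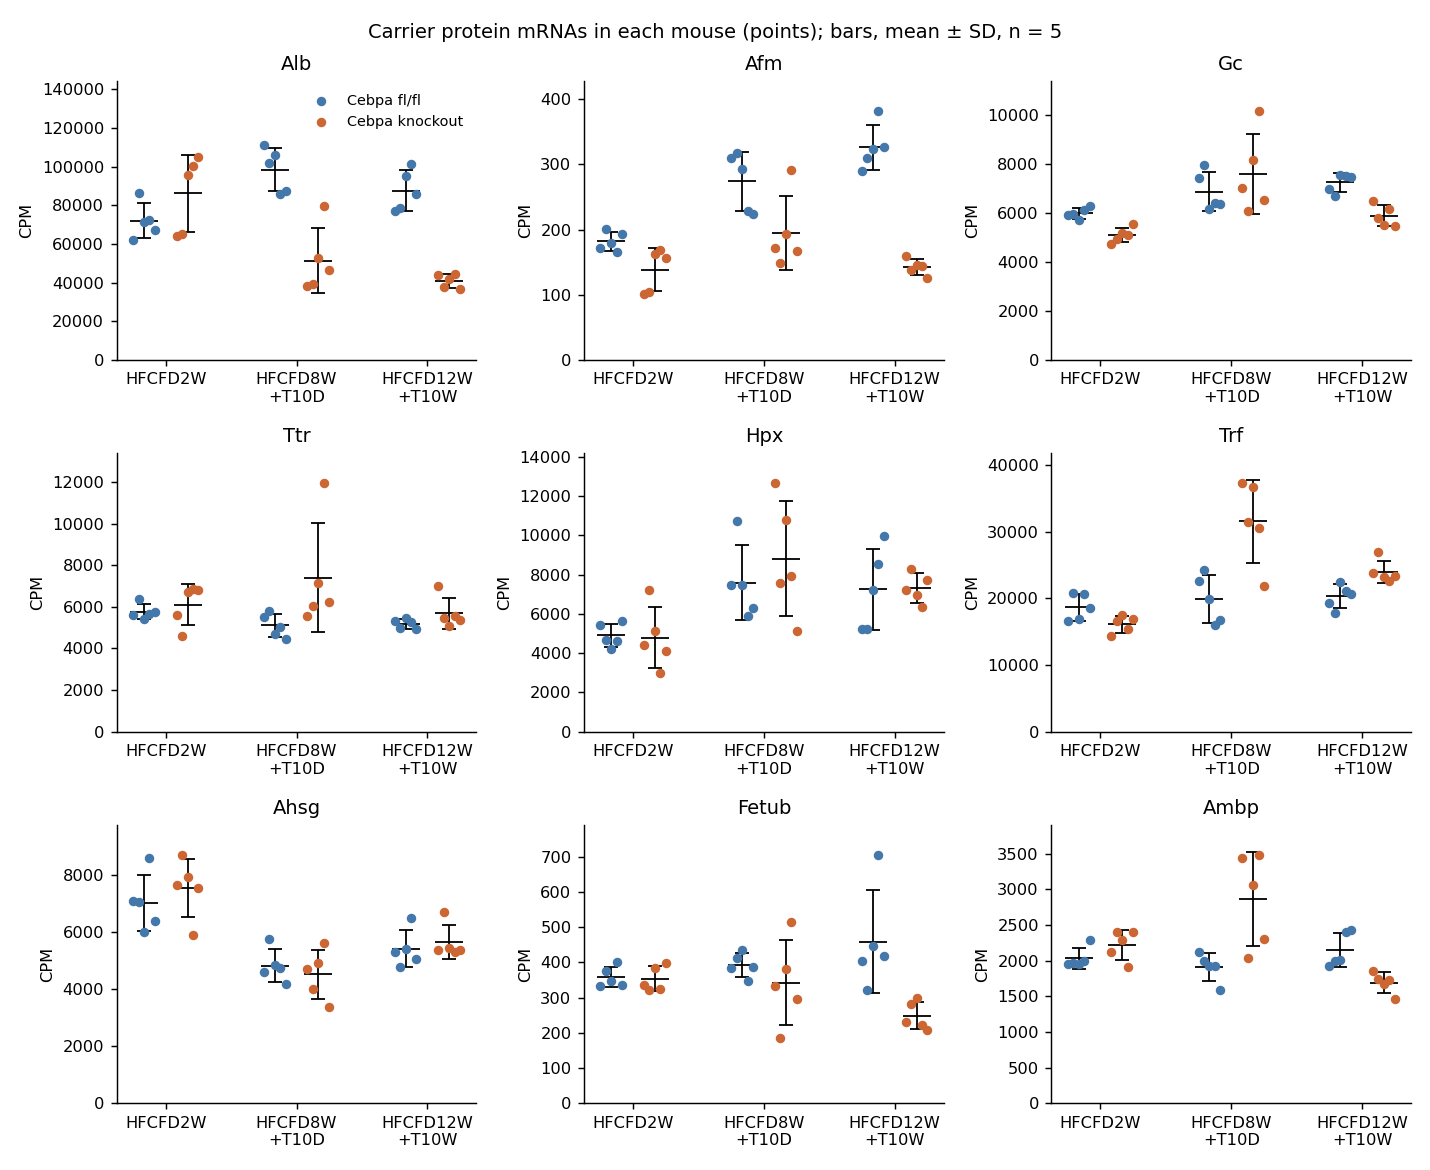
CPM of each of the 9 genes in every mouse, 1 panel per gene, with the mean and SD of each group of 5. Alb lies lower in every knockout than in any control of HFCFD8W+T10D and of HFCFD12W+T10W, while in HFCFD2W 3 knockouts lie above the controls.

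After 10 days of tamoxifen in HFCFD8W+T10D, Alb was lower in the knockouts and Ambp was higher, 2 calls among the 9 genes where 17.1% of 11990 genes tested were called, 6.85% as lower and 10.3% as higher. Unadjusted p was under 0.05 for 5. The median log2 difference of the 9 genes was 0.15, against 0.01 over all genes. Alb was at 110963, 101859, 106123, 85982 and 87267 CPM in controls and at 38038, 39303, 52702, 79736 and 46717 CPM in knockouts. Every knockout was below every control, as were 5.28% of all genes, although knockout 4 came close to the lowest controls. The mean fell from 98439 ± 11265 to 51299 ± 16966 CPM, a log2 difference of -0.94 (SE 0.28, edgeR adjusted p = 0.0344).

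Ambp, the precursor of alpha-1-microglobulin and bikunin, was at 2117, 1990, 1924, 1923 and 1592 CPM in controls and at 3442, 2044, 3059, 3488 and 2300 CPM in knockouts. Knockout 2 lay within the controls and the other 4 above them, with a log2 difference of 0.59 (SE 0.18, edgeR adjusted p = 0.0395). Both calls were close to the threshold. Both were lost with limma, without the filter on low counts and with the replicate block, whose numbers do not pair mice across genotypes (adjusted p = 0.552, 0.086 and 0.134 for Alb, and 0.105, 0.0748 and 0.0752 for Ambp). That of Alb held without knockout 4 (log2 difference -1.17, adjusted p = 0.0044) and was lost without any other single mouse, with adjusted p of 0.101, 0.0534, 0.0805 and 0.0745 without knockouts 1, 2, 3 and 5, and 0.0775, 0.0616, 0.0663, 0.0624 and 0.0561 without controls 1 to 5. That of Ambp held without knockouts 2 and 5 and was lost without knockouts 1, 3 and 4 (0.107, 0.0916 and 0.0637) and without controls 1 to 5 (0.0645, 0.0662, 0.077, 0.0895 and 0.0972). The log2 difference of Alb stayed between -1.17 and -0.86 and that of Ambp between 0.50 and 0.68 in these fits.

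Trf, the iron carrier, was at 22612, 24203, 19846, 15982 and 16756 CPM in controls and at 37335, 31380, 36716, 30495 and 21913 CPM in knockouts of the same experiment. All but knockout 5 exceeded every control, and the log2 difference of 0.67 (SE 0.23) had an edgeR adjusted p of 0.0628, or 0.0493 without knockout 5. Afm was at 310, 317, 292, 228 and 223 CPM in controls and at 172, 149, 192, 292 and 167 CPM in knockouts. All knockouts but knockout 4 lay below every control, and the log2 difference of -0.50 (SE 0.18, adjusted p = 0.0798) became -0.70 (adjusted p = 0.0048) without that mouse. Ttr differed by 0.53 (SE 0.22, adjusted p = 0.121), with 4 of 5 knockouts above all controls. Gc, Hpx, Ahsg and Fetub differed by 0.15, 0.22, -0.09 and -0.20, with adjusted p of 0.571 or above, and Ahsg turned to 0.07 when library totals were used in place of TMM.

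Knockout 4 stood apart in this experiment: it had the highest CPM of the knockouts in 7 of the 9 genes, all but Hpx and Trf. Its TMM factor was 0.882, against 1.01 to 1.22 in the other knockouts and 0.843 to 0.993 in the controls. Scaling by library totals alone, without TMM, put the median of all genes at 0.19 and gave 4 higher (Ambp, Trf, Ttr and Gc) and 1 lower (Alb) in place of 1 and 1. DESeq2, and a robust edgeR fit that kept TMM, each gave 2 higher and 1 lower, with Trf joining Ambp. In the edgeR fit of all 30 libraries, also with TMM, 3 were higher and 2 lower. On library totals the log2 differences, to be read against 0.19, were -0.79 for Alb, 0.75 for Ambp, 0.86 for Trf, 0.68 for Ttr and 0.31 for Gc.

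After 10 weeks of tamoxifen in HFCFD12W+T10W, 5 of the 9 genes were lower in the knockouts and 0 higher: Afm, Alb, Fetub, Ambp and Gc. In all, 23.8% of 12463 genes tested were lower and 51.1% were called in either direction. The median log2 difference of the 9 genes was -0.30, against 0.01 over all genes. Alb was at 76846, 78474, 95314, 101368 and 85951 CPM in controls and at 43664, 37932, 41813, 44206 and 36456 CPM in knockouts. The knockouts lay close together and all below the lowest control, at 46.6% of the control level (log2 difference -1.10, SE 0.12, edgeR adjusted p = 8.9e-06). Afm was at 290, 310, 323, 382 and 326 CPM in controls and at 159, 138, 146, 144 and 126 CPM in knockouts. That vitamin E carrier was thus at 43.6% of its control level, again without overlap (log2 difference -1.20, SE 0.09, edgeR adjusted p = 6.4e-07).

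Fetub was at 404, 322, 446, 706 and 417 CPM in controls and at 232, 281, 298, 224 and 209 CPM in knockouts. Control 4 was far above the rest, and all knockouts were below the lowest control (log2 difference -0.88, SE 0.18, edgeR adjusted p = 0.0014). Gc was at 7009, 6685, 7568, 7538 and 7496 CPM in controls and at 6504, 5812, 5532, 6167 and 5494 CPM in knockouts, and Ambp at 1930, 1999, 2013, 2397 and 2423 CPM against 1856, 1737, 1677, 1732 and 1469 CPM. For both genes the highest knockout was just below the lowest control. Their log2 differences were -0.30 (SE 0.09, edgeR adjusted p = 0.0115) and -0.35 (SE 0.10, edgeR adjusted p = 0.00999), but with library totals in place of TMM they turned to 0.07 and 0.02. The fall of Alb and Afm exceeded 2-fold, as did the change of 17.7% of all genes, and that of the other 3 did not. In all, 5 of the 9 genes had every knockout below every control, where 16.8% of all genes did.

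The remaining 4 genes were not lower. Trf was at 19340, 17771, 22464, 21157 and 20700 CPM in controls and at 23750, 26879, 23251, 22645 and 23346 CPM in knockouts. Every knockout exceeded every control, as in 20.9% of all genes, yet the log2 difference of 0.24 (SE 0.10) had an edgeR adjusted p of 0.0578. Ttr and Ahsg differed by 0.13 and 0.06, with adjusted p of 0.282 and 0.665, and Hpx by 0.01 (SE 0.17, adjusted p = 0.959), a difference whose sign turned under DESeq2, limma and 2 other settings. Its controls ran from 5234 to 9979 CPM and so spanned all 5 knockouts.

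The calls of HFCFD12W+T10W for Alb, Afm, Fetub, Gc and Ambp held with each of the 10 mice left out in turn. The TMM factors did not overlap between genotypes there, at 0.849 to 0.916 in controls and 1.11 to 1.19 in knockouts. Scaling by library totals alone put the median of all genes at 0.38 and split the calls into 3 lower (Alb, Afm and Fetub, at -0.73, -0.83 and -0.50) and 3 higher (Trf, Ttr and Ahsg, at 0.62, 0.50 and 0.44). Upper quartile scaling and DESeq2 kept all 5 as lower and added Trf as higher (0.32 and 0.21). The robust edgeR fit, with TMM kept, also gave these 5 lower and 1 higher, again Trf. Marker sums of this experiment follow, knockout and then control livers, on library totals without TMM. The cholangiocyte markers, Spp1 among them, were at 938 to 1346 and 40.5 to 55.8 CPM. Stellate cell and fibroblast markers were at 1455 to 1810 and 248 to 338 CPM, and hepatocyte markers at 9199 to 11319 and 10470 to 13845 CPM. Lymphocyte markers were at 5.18 to 9.44 and 0.467 to 2.98 CPM and erythroid markers at 585 to 1350 and 206 to 547 CPM. No marker was at 0 in all 10 libraries, while zeros in single libraries were not counted. The part of these shifts in the fall of the 5 genes was not tested.

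**Figure D3:**
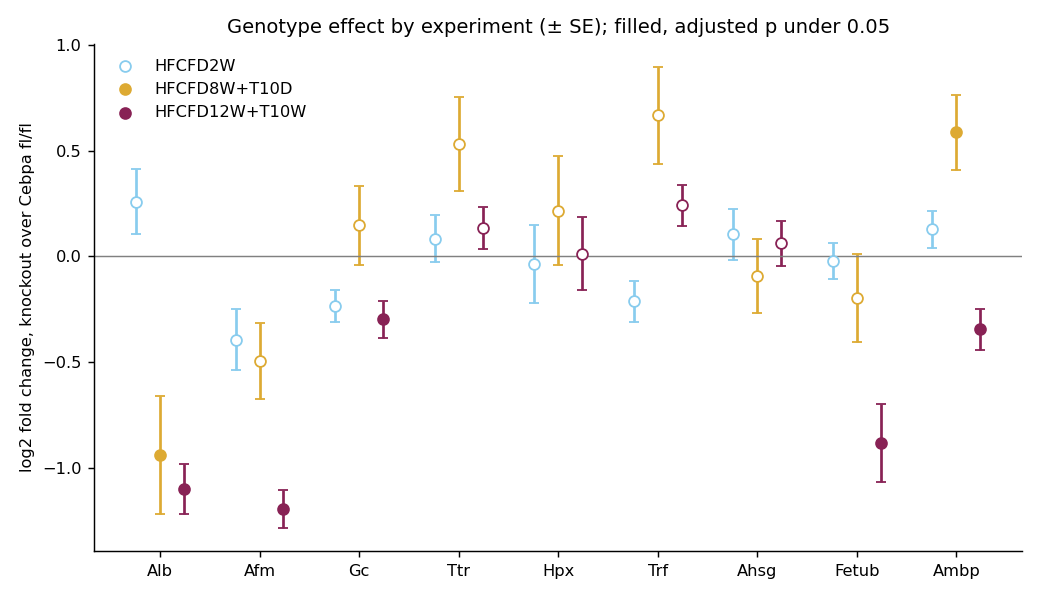
Log2 difference, knockout minus Cebpa fl/fl, with SE from the edgeR fit for each of the 9 genes in the 3 experiments (n = 5 and 5 each), filled where the adjusted p was under 0.05. No gene is filled in HFCFD2W, Alb and Ambp are filled on opposite sides in HFCFD8W+T10D, and 5 genes are filled below 0 in HFCFD12W+T10W.

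Whether the genotype effect differed between experiments was tested as an interaction in 1 edgeR fit of all 30 libraries over 12964 genes. Of 27 such differences (9 genes, 3 pairs of experiments), 8 passed. The pairs share groups, and mouse line, diet time and tamoxifen differ between experiments, so their parts cannot be told apart. The labels give no batch, and any batch difference between experiments could not be told apart from these either. The effect on Alb was lower by 1.21 in HFCFD8W+T10D than in HFCFD2W (log2 difference of differences -1.21, SE 0.25, adjusted p = 0.0019) and lower by 1.40 in HFCFD12W+T10W than in HFCFD2W (-1.40, SE 0.25, adjusted p = 0.00014). Between the inducible experiments the effects on Alb differed by -0.19 (SE 0.25, adjusted p = 0.692), a difference smaller than its standard error.

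Ambp, higher in knockouts at 10 days and lower at 10 weeks, differed between the inducible experiments by -0.96 (SE 0.18, adjusted p = 0.0011). It also differed by -0.52 between HFCFD12W+T10W and HFCFD2W (SE 0.18, adjusted p = 0.0268), a call that was lost without knockout 5, control 4 or control 5 of HFCFD12W+T10W (adjusted p 0.067, 0.0709 and 0.073). The same call was lost in 4 of 6 other settings, with library totals (-0.13, adjusted p = 0.466), upper quartile scaling (-0.39, 0.0993), the replicate block (-0.47, 0.109) and no filter (-0.52, 0.0521). The effect on Trf was higher by 0.87 in HFCFD8W+T10D than in HFCFD2W (SE 0.19, adjusted p = 0.0035). Afm and Fetub had lower effects in HFCFD12W+T10W than in HFCFD2W, by -0.84 (SE 0.22, adjusted p = 0.0044) and -0.90 (SE 0.26, adjusted p = 0.0092). Afm also differed between the inducible experiments by -0.73 (SE 0.22, adjusted p = 0.0303). Leaving out single mice ended that last call in 10 of 20 fits, those without knockouts 2 and 5 and controls 3, 4 and 5 of HFCFD12W+T10W (adjusted p 0.0543, 0.0635, 0.0543, 0.0719 and 0.0504) and without knockouts 3 and 4 and controls 3, 4 and 5 of HFCFD8W+T10D (0.055, 0.0782, 0.0511, 0.0703 and 0.0805).

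In these tests 11.2% of all genes differed between HFCFD8W+T10D and HFCFD2W, 10.5% between the inducible experiments, and 30.7% between HFCFD12W+T10W and HFCFD2W, against 2, 2 and 4 of the 9 genes. The effects on Gc, Ttr, Hpx and Ahsg did not pass in any pair. The direction of the calls depended on the scaling in the pairs with HFCFD2W. For HFCFD12W+T10W, library totals gave 3 higher (Gc, Trf and Ttr) and 2 lower (Alb and Afm) in place of 0 and 4 (median of all genes 0.38), upper quartile scaling gave 1 higher (Trf) and 3 lower (Alb, Afm and Fetub), DESeq2 added Trf as higher, and no filter left the same 3 lower and 0 higher. For HFCFD8W+T10D, library totals gave 4 higher (Ambp, Gc, Trf and Ttr) and 1 lower (Alb) in place of 1 and 1 (median of all genes 0.19).

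The 9 genes together held 11.6 ± 0.992% (SD, n = 5) of all counts in controls of HFCFD2W, 13.6 ± 1.18% in controls of HFCFD8W+T10D and 11.9 ± 1.03% in controls of HFCFD12W+T10W. Knockouts were at 12.9 ± 1.72%, 12.01 ± 0.920% and 10.4 ± 0.299%, with 3 knockouts above all controls in HFCFD2W, and 3 and 4 below all controls in the inducible experiments. Alb alone held 7.13 ± 0.891% of counts in controls and 8.63 ± 1.80% in knockouts of HFCFD2W, with 3 of 5 knockouts above all controls (two-sided exact permutation test, p = 0.127, adjusted over 6 share tests 0.152).

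In HFCFD8W+T10D the share of Alb was 10.1, 8.58, 10.4, 8.37 and 8.66% in controls and 4.06, 4.80, 5.32, 7.02 and 5.44% in knockouts. In HFCFD12W+T10W it was 6.71, 7.18, 8.15, 8.59 and 7.75% against 4.83, 4.38, 4.68, 4.89 and 4.34%. Neither pair of groups overlapped. The differences were -3.90 and -3.05 percentage points, each with an exact permutation p of 0.00794, the smallest that 5 mice against 5 allow, and 0.0238 after adjustment. The other 8 genes together went from 4.37 ± 0.382% to 6.68 ± 0.898% of counts in HFCFD8W+T10D and from 4.24 ± 0.340% to 5.75 ± 0.424% in HFCFD12W+T10W, with every knockout above every control in both. These are shares of unscaled totals, on which the median of all genes differed by 0.19 and 0.38 on the log2 scale, and with TMM 4 of these 8 genes (Afm, Fetub, Ambp and Gc) were lower in HFCFD12W+T10W. Afm and Fetub had smaller mean shares of counts in knockouts of both experiments. In HFCFD8W+T10D the shares of both genes overlapped between genotypes, and Fetub differed little, at 0.0369% in controls and 0.0354% in knockouts. In HFCFD12W+T10W the shares of Fetub overlapped and those of Afm did not. In HFCFD2W the other 8 genes together went from 4.45 ± 0.167% to 4.26 ± 0.266%, with overlap. In the inducible experiments Trf made up most of the gain, from 1.85% to 3.35% and from 1.78% to 2.72% of counts.

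Within the 9 genes, Alb made up 61.4, 67.8 and 64.4% of the counts in the 3 control groups and 66.4, 44.3 and 44.6% in the knockouts. The ratio of Alb to Trf counts, the only ratio taken, does not depend on library scaling. In the inducible experiments this ratio joins a lower share of Alb with a higher share of Trf. It was 3.503 to 4.23 in controls and 3.96 to 6.52 in knockouts of HFCFD2W. In HFCFD8W+T10D it was 4.21 to 5.38 in controls against 1.02 to 2.61 in knockouts, and in HFCFD12W+T10W 3.97 to 4.79 against 1.41 to 1.95. In both inducible experiments the knockouts lay below every control. Expected counts of Trf were not whole numbers in 28 of 30 libraries, so part of its reads was divided between genes, and those of the other 8 genes were whole throughout.

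**Figure D4:**
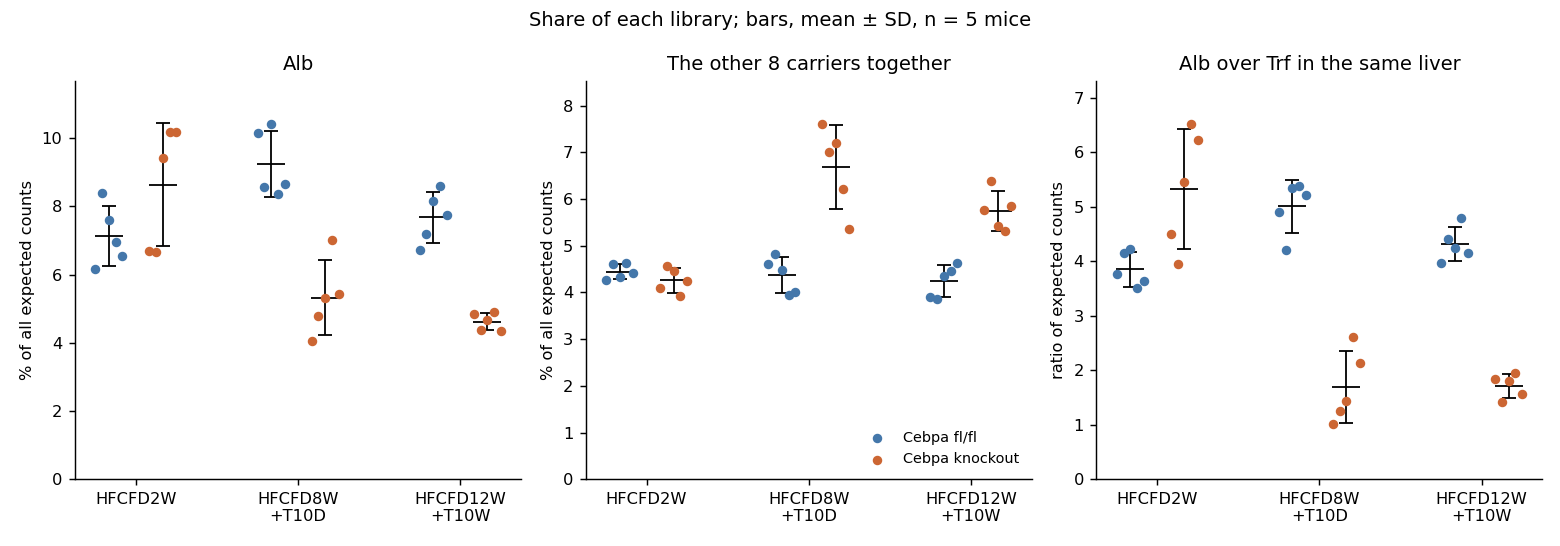
Per mouse with group mean and SD (n = 5): share of all counts held by Alb (percent, left), share held by the other 8 genes (percent, middle) and ratio of Alb to Trf counts (right). In HFCFD8W+T10D and HFCFD12W+T10W the knockouts lie below the controls on the left and right and above them in the middle.

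The experiments of the Cebpa fl/fl livers differ in diet time and tamoxifen, and may differ in batch, which the labels do not give. Among these livers 3 of the 9 genes were lower in HFCFD8W+T10D than in HFCFD2W, where 43.6% of all genes differed (21.5% lower). The CPM that follow were scaled over all 30 libraries. Ahsg, fetuin-A, was at 8335, 8323, 7038, 10218 and 7505 CPM in HFCFD2W, at 4474, 5690, 4729, 4611 and 4078 CPM in HFCFD8W+T10D, and at 4722, 4260, 4787, 5729 and 4454 CPM in HFCFD12W+T10W. The HFCFD2W controls lay above both other groups, and the log2 difference of HFCFD8W+T10D from HFCFD2W was -0.81 (SE 0.14, edgeR adjusted p = 2.3e-05). Ttr and Ambp differed by -0.44 (SE 0.15, adjusted p = 0.0211) and -0.36 (SE 0.13, adjusted p = 0.02). The call of Ttr was lost without control 2 of HFCFD2W or control 3 or 5 of HFCFD8W+T10D (adjusted p 0.0521, 0.0565 and 0.069), and that of Ambp without control 5 of either experiment (0.0585 and 0.0895). Between the controls of HFCFD12W+T10W and HFCFD8W+T10D, 0 of the 9 genes passed in edgeR and 0 had an unadjusted p under 0.05, DESeq2 also called 0, and 11.4% of all genes differed. Alb did not pass in either comparison of controls (0.18 and -0.31, adjusted p = 0.423 and 0.279). Library totals in place of TMM put the median of all genes at 0.21 and split the calls of HFCFD8W+T10D minus HFCFD2W into 3 higher (Afm, Alb and Hpx, at 0.51, 0.37 and 0.54) and 1 lower (Ahsg, at -0.62), and upper quartile scaling into 1 higher (Afm) and 2 lower (Ahsg and Ttr).

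The other carriers of plasma were followed as a list of 30 further genes. In HFCFD2W, 2 of 25 tested were higher and 4 lower, with a median log2 difference of -0.11, where 16.7% of all genes were called. HFCFD8W+T10D had 2 of 26 higher and 2 lower (median 0.06), close to the 17.1% of all genes. HFCFD12W+T10W had 17 of 26 lower and 2 higher (median -0.63, against 0.01 over all genes), where 51.1% of all genes were called and 23.8% were lower. Serpina7, which carries thyroid hormone beside Ttr and Alb, fell from 36.7 ± 18.1 to 10.99 ± 5.11 CPM in HFCFD2W (log2 difference -1.75) and from 27.8 ± 12.99 to 11.3 ± 4.06 CPM in HFCFD8W+T10D (-1.30). Serpina6, the corticosteroid carrier, fell from 231 ± 32.2 to 123 ± 37.1 CPM in HFCFD2W, and the copper protein ceruloplasmin, Cp, from 1136 ± 33.7 to 869 ± 73.2 CPM. The inter-alpha-trypsin inhibitor heavy chain gene Itih5 rose in all 3 experiments, by 1.32, 2.03 and 2.49 on the log2 scale.

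Lcn2, a lipocalin that binds iron-loaded siderophores, was at 74.4 ± 15.2 CPM in controls and 342 ± 426 CPM in knockouts of HFCFD8W+T10D, an uneven rise with an edgeR adjusted p of 0.0451. Apom, the lipocalin of HDL, fell there by 0.57. In HFCFD12W+T10W the acute phase carrier Orm1 fell from 760 ± 361 to 86.7 ± 46.0 CPM (-3.13), its relative Orm3 from 6.33 ± 6.36 to 0.266 ± 0.176 CPM (-4.53), and the histidine-rich glycoprotein Hrg from 1286 ± 99.9 to 564 ± 68.5 CPM (-1.19). Orm1 and Orm3 are close relatives in sequence, so the division of reads between them is uncertain.

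Receptors that take up or recycle these proteins were a list of 14, with 11 tested. HFCFD2W had 1 higher and 3 lower. HFCFD8W+T10D had 0 past the edgeR test (4 at an unadjusted p under 0.05), and HFCFD12W+T10W had 1 higher and 5 lower. All genes were called at 16.7%, 17.1% and 51.1%, and the 6 of 11 listed genes in HFCFD12W+T10W were near that last share. The medians were -0.06, 0.07 and -0.29. Fcgrt, which encodes the receptor that returns endocytosed albumin to blood, fell from 194 ± 18.4 to 132 ± 13.8 CPM in HFCFD12W+T10W (-0.55). Tfr2, a hepatocyte transferrin receptor and iron sensor, fell from 435 ± 20.9 to 244 ± 24.8 CPM (-0.83), while its ligand Trf did not fall. The asialoglycoprotein receptor subunit Asgr2 fell by 0.66 and the endocytic adaptor Dab2 rose by 1.18. In HFCFD2W, Stra6l, a receptor for retinol binding protein, fell by 0.61, Dab2 by 0.56 and Asgr1 by 0.27, and the insulin receptor Insr rose by 0.26.

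Transcription factors of the hepatocyte programme, a list of 16 that includes the deleted Cebpa, counted 1 higher and 4 lower after 2 weeks of diet, 0 higher and 7 lower after 10 days of tamoxifen, and 2 higher and 11 lower after 10 weeks of it (medians -0.25, -0.53 and -0.54). Of all genes 16.7%, 17.1% and 51.1% were called, and in HFCFD12W+T10W 23.8% were lower. Cebpb, the CEBPA relative, rose by 1.11 in HFCFD2W, from 18.7 ± 4.71 to 40.5 ± 5.26 CPM, and Prox1 and Dbp fell there by 1.00 and 0.96. Nr1i3, the xenobiotic receptor CAR, fell by 1.37 and 1.49 in the inducible experiments. Onecut1 and Hlf fell by 1.31 and 0.65 in HFCFD8W+T10D. Hnf4a fell from 806 ± 72.2 to 416 ± 27.97 CPM in HFCFD12W+T10W, and Prox1 by 0.79.

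Hepatocyte enzymes, a list of 12 that stands beside the secreted carriers, counted 2 higher and 3 lower, 0 and 5, and 0 and 11 in the same order (medians -0.11, -0.39 and -0.92), beside the same shares of all genes. Of the tyrosine and tryptophan pathways, Hpd and Tdo2 fell in all 3 experiments, with log2 differences of -0.67, -0.94 and -1.57 for Hpd and -0.57, -1.47 and -1.497 for Tdo2. Hgd fell by 0.57 and Tat rose by 1.52 in HFCFD2W. In the inducible experiments the urea cycle enzyme Cps1 (-1.37 and -1.39) and the ethanol-inducible Cyp2e1 (-1.28 and -1.37) fell. In HFCFD12W+T10W the median of the enzymes was -0.92 and that of the 9 plasma carriers -0.30.

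Genes whose profile over the 6 group means came nearest to that of a member were sought among 7046 others, by the root mean square distance of centred log2 CPM, as a description without a test. Nearest to Alb were Cyp4v3, Gm48633 and the deiodinase gene Dio1, at 0.13, 0.14 and 0.14. Slc25a47 was nearest to Afm at 0.10, Pla2g15 to Trf at 0.09 and Serpinc1, the gene of antithrombin, to Ambp at 0.07. For Gc, Ttr, Hpx, Ahsg and Fetub they were Rnf149, Tmx2, Diaph1, Vars2 and Slc31a1, at 0.04 to 0.05.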

How the data were processed

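Poly(A) RNA of 30 livers was sequenced with a stranded kit, 1 library per mouse. The authors deposited expected counts made with RSEM, without normalization, TPM from the same RSEM output, and a TMM-normalized signal table of 15010 genes. The submitters' processing notes name Trimmomatic 0.36, STAR 2.5.1, Picard 1.84, RSEM 1.2.22, DESeq2 and mm10. The strand setting of RSEM is not given in the sources used here. All 55450 identifiers are those of GENCODE M21. FPKM values were not used.

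Expected counts were rounded and tested with edgeR 4.0.16 in R 4.3.3 (filterByExpr, TMM, quasi-likelihood F test, Benjamini-Hochberg over all genes tested), within each experiment or, for differences between experiments and between controls, in 1 fit of all libraries. Calls were made below an adjusted p of 0.05. Shares and marker sums used the unscaled library totals. DESeq2 1.42.0, limma 3.58.1 on log2(signal + 1), library totals, upper quartile scaling, robust fits, no filter, a replicate block, the 9 genes left out of the totals, stricter thresholds and leaving out each mouse were alternatives. The steps were tested on simulated data. The genes named are the 9 members, Cebpa, up to 4 called genes per list and experiment with the largest change and at least 1 CPM, and the nearest profiles (3 for Alb, 1 for each other member, among genes of at least 10 CPM). Afp was named for its position. The members and lists were chosen with earlier results of these data known.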

Additional observations from a re-analysis of the deposited data

Results flagged for a closer look

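In 66 groups of 5 values (the CPM of each gene in each group, and the shares of Alb and of the 9 genes), 4 held a mouse whose distance from its neighbour exceeded Dixon's 95% limit, and chance gives about 1 in 20 such groups. Ttr was at 6990 CPM in knockout 1 of HFCFD12W+T10W, above the other 4 knockouts. Knockout 2 of the same experiment was above its group in Trf, at 26879 CPM, and in Ahsg, at 6697 CPM. Control 5 of HFCFD2W was above its group in Ambp, at 2296 CPM.

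The genotype effect differed between experiments in 8 of 27 interaction tests (edgeR adjusted p under 0.05), as log2 differences of differences. Between HFCFD12W+T10W and HFCFD2W these were -1.40 for Alb, -0.84 for Afm, -0.90 for Fetub and -0.52 for Ambp. Between HFCFD12W+T10W and HFCFD8W+T10D they were -0.73 for Afm and -0.96 for Ambp, and between HFCFD8W+T10D and HFCFD2W -1.21 for Alb and 0.87 for Trf. Mouse line, diet time and tamoxifen differ between these experiments and cannot be told apart, nor can any batch, which the labels do not give.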

How the results depend on the processing

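The 5 calls of HFCFD12W+T10W held in every fit with a mouse left out (5 to 5 called), under DESeq2, limma, the joint fit, the replicate block and no filter. With a fold change over 2 there were 2. In HFCFD2W, DESeq2, library totals, robust fits and upper quartile scaling called 1 in place of 0, and left-out mice gave 0 to 1. In HFCFD8W+T10D, the joint fit and library totals called 5 in place of 2, while limma, no filter, the replicate block, a fold over 2 and an adjusted p under 0.01 called 0, and left-out mice gave 0 to 2. Differences of effects between HFCFD12W+T10W and HFCFD8W+T10D numbered 1 in place of 2 under library totals, the block and upper quartile scaling (left-out mice 1 to 4). Between HFCFD12W+T10W and HFCFD2W the block gave 2 in place of 4, and between HFCFD8W+T10D and HFCFD2W library totals gave 5 in place of 2. Other plasma carriers called in HFCFD12W+T10W were 5 at a fold over 2 in place of 19, in HFCFD2W 2 under the block and at a fold over 2 in place of 6, and in HFCFD8W+T10D 8 under library totals in place of 4 (left-out mice 2 to 9). Replicate numbers do not pair mice across genotypes (same-number correlations -0.336 to 0.195), so the block adds no pairing.

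Some log2 values changed sign. With library totals they were 0.072 (Gc) and 0.024 (Ambp) in HFCFD12W+T10W and 0.073 (Ahsg) in HFCFD8W+T10D. As differences of effects they were 0.28 (Gc) and 0.31 (Ahsg) for HFCFD12W+T10W minus HFCFD2W, 0.063 (Alb) for HFCFD12W+T10W minus HFCFD8W+T10D and 0.038 (Afm) for HFCFD8W+T10D minus HFCFD2W. In controls of HFCFD8W+T10D minus HFCFD2W they were 0.11 (Gc), 0.0057 (Trf) and 0.055 (Fetub). Upper quartile scaling gave -0.012 (Ahsg) and -0.0024 (Ambp) for controls of HFCFD12W+T10W minus HFCFD8W+T10D, and 0.022 (Gc) and 0.045 (Ahsg) for the effect of HFCFD12W+T10W minus HFCFD2W, where no filter gave -0.0034 (Hpx). Hpx in HFCFD12W+T10W was -0.016 under DESeq2, -0.029 in the joint fit, -0.0075 under limma and -0.0038 without the filter. The cause was not tested.

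Leaving out single mice turned the sign in these ranges: controls of HFCFD12W+T10W minus HFCFD8W+T10D, Gc -0.10 to 0.0023, Ahsg -0.048 to 0.099, Fetub -0.12 to 0.19 and Ambp -0.029 to 0.069. Effects of HFCFD12W+T10W minus HFCFD2W were -0.083 to 0.072 for Ttr, -0.13 to 0.20 for Hpx and -0.18 to 0.021 for Ahsg, and that of HFCFD12W+T10W minus HFCFD8W+T10D was -0.29 to 0.026 for Alb. In HFCFD12W+T10W, Hpx ran from -0.11 to 0.14 and Ahsg from -0.010 to 0.12, and in HFCFD2W Hpx from -0.23 to 0.093 and Fetub from -0.069 to 0.020.

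The share of counts held by the 9 genes differed without Alb by -0.188, 2.30 and 1.51 percentage points in HFCFD2W, HFCFD8W+T10D and HFCFD12W+T10W, in place of 1.31, -1.60 and -1.54. As a share of TPM the difference was -0.312 in HFCFD8W+T10D and -0.662 in HFCFD12W+T10W.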
